A study of Mus musculus with 70 samples.

Results

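The 49 genes described here encode chromatin remodellers, the enzymes that write or remove marks on histones and DNA, and chromatin architecture proteins together with the histone variant macroH2A1. They were found by Entrez identifier among the 27179 genes counted in mouse bone marrow progenitors, and all 49 had counts. They fall into 8 role groups: 12 SWI/SNF subunits, 2 ISWI or CHD1 motors, 10 NuRD subunits and histone deacetylases, 4 PRC2 subunits, 5 PRC1 subunits, 4 histone lysine methyltransferases and demethylases, 7 genes of DNA methylation, and 5 architecture or variant genes.

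Nucleosomes limit access to DNA, and remodellers of the SWI/SNF, ISWI and CHD families use ATP to slide, evict or space them. Polycomb complexes mark and compact silent genes: PRC2 methylates lysine 27 of histone H3, PRC1 ubiquitinates histone H2A, and demethylases of the Kdm6 family take the H3 mark off. UHRF1 brings the maintenance methyltransferase DNMT1 to newly copied DNA, and TET enzymes start the removal of methylation. MacroH2A1 is an H2A variant with a large globular macrodomain, known for its part in silent chromatin. In lymphoid progenitors some of these proteins help to close the genes of other fates as a lineage is chosen.

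Each library was made from 100 sorted bone marrow cells by CEL-seq, an RNA-seq method for few cells that counts polyadenylated transcripts from their 3′ ends. The wild-type (WT) groups held 8 libraries of CLP (common lymphoid progenitors), 5 of CLP that carry the integrin a4b7, 7 of CILP (common innate lymphoid progenitors), 3 of cells labelled ILCP, and 8 of ILC2P (group 2 innate lymphoid cell progenitors). Mice lacking Tcf7 (TCF7-/-), the gene of the transcription factor TCF-1, gave 5 CLP, 4 CILP and 2 ILC2P libraries, and mice lacking Id2 (Id2-/-), an inhibitor of E proteins, gave 2 CLP, 2 CILP and 1 ILCP library. The sources used here do not describe the deletions, the strain, the age of the mice or the gate of ILCP, or whether libraries of a group came from different mice. The p-values therefore measure the spread between libraries, which may be technical. Libraries fell in 2 batches: every Id2 knockout library was in batch 1, and both Tcf7 knockout ILC2P libraries were in batch 2. In such bulk libraries fewer cells of a type and less RNA per cell cannot be told apart.

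Total counts per library ran from 19322 to 624668, with a median of 134985. WT ILC2P libraries had 19322 to 80873, with a median of 66812.5, and the 2 Tcf7 knockout ILC2P libraries had 248697 and 252100. Tcf7 knockout CILP libraries had 44089 to 432561, with the lower median of 56609. The CLP markers Flt3 and Rag1 had medians of 448 and 479 CPM (counts per 1000000 of a library, scaled with TMM factors) in WT CLP, and the median of Flt3 was 0 in WT CILP and ILC2P. Gata3 had a median of 12.8 CPM in WT CLP, 1923 in CILP and 2588 in ILC2P. Il1rl1, the IL-33 receptor gene of group 2 cells, had a median of 988 CPM in WT ILC2P, 1304 in ILCP and 0 in CILP. A list of 10 ILC2P markers summed to 8947 to 12115 CPM in WT ILCP and 3349 to 10531 in ILC2P. These markers thus did not set the 2 labels apart. Tcf7 was at 166 to 779 CPM in WT CILP and 0 to 63.4 in Tcf7 knockout CILP, but it was near 0 in WT CLP and ILC2P too, so it checks no label there. Id2 was at 79.6 to 2286 CPM in WT CILP and at 27.1 and 116 in Id2 knockout CILP. In WT ILC2P it was at 0 in replicates 1, 2 and 3 and at up to 1002 CPM in the others. Whether the 3′ tags lie in the deleted parts is not stated. In 5 libraries, markers of erythroid and megakaryocyte, myeloid, or B and plasma cells summed to over 1% of 1000000 CPM. They were WT ILCP replicate 1, Tcf7 knockout CILP replicates 1 and 4, Tcf7 knockout ILC2P replicate 1 and the Id2 knockout ILCP library. The scaled CPM of a library need not sum to 1000000, so this is not a share of its counts.

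Promoters are shown as sequence context for 4 of the members that differed between WT ILC2P and CLP. Macroh2a1, Uhrf1 and Ezh2 were lower in ILC2P and Cbx7 was higher, and shared control of these genes was not tested. They come from RefSeq on GRCm38.p6, whose table held 41 of the 49 members, and each run is the 250 bases upstream of a transcript start, 5′ to 3′ on the gene's strand. Capitals mark matches on either strand to an E2F motif (TTTGGCGC, TTTCGCGC or GGCGGGAA), the CCAAT box (CCAAT), an E-box (CAGGTG or CAGCTG) or a TCF motif (CTTTGAT or CTTTGAA), and no matches overlapped. The Macroh2a1 run lies at chr13:56135551-56135800 (minus strand), the Uhrf1 runs at chr17:56303087-56303336 and chr17:56304063-56304312 (plus strand, 2 starts), the Ezh2 run at chr6:47595031-47595280 (minus strand) and the Cbx7 run at chr15:79932647-79932896 (minus strand).
Macroh2a1: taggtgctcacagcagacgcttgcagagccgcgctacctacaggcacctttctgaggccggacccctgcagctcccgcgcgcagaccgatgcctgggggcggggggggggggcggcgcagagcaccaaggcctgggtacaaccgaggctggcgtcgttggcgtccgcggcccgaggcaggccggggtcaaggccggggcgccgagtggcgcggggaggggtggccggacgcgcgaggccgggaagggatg
Uhrf1, upstream start: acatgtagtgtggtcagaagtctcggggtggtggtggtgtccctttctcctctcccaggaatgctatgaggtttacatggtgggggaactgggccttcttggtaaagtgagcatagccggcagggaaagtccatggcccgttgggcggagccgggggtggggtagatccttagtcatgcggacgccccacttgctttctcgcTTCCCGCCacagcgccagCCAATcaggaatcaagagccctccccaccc
Uhrf1, downstream start: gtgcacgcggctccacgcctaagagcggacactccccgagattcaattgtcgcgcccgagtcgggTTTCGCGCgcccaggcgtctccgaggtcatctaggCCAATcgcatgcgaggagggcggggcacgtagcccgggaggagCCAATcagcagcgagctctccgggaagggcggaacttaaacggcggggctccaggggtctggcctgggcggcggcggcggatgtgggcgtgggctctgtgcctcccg
Ezh2: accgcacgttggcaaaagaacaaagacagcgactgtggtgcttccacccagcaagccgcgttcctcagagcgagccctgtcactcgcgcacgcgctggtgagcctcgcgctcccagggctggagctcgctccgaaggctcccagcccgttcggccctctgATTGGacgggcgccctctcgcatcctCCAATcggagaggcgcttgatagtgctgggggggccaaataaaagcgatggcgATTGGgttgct
Cbx7: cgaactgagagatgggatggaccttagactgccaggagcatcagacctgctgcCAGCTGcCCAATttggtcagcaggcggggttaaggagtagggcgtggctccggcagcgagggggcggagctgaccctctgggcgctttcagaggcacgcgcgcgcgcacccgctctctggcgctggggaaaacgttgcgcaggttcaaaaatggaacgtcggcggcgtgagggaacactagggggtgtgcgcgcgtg

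None of these motifs matched in the 250 bases of Macroh2a1, of which 74.8% were G or C, against a median of 52.4% over 32851 RefSeq promoters. Each Uhrf1 promoter held 1 E2F match, which 2.48% of all promoters and 7.55% of the 53 member promoters hold. It began 48 bases before the upstream start, on the opposite strand, and 185 bases before the downstream start. A CCAAT box was in 33.8% of all promoters, and Ezh2 held 3, beginning 90, 64 and 11 bases before its start. Cbx7 held a CCAAT box and an E-box, and an E-box was in 27.7% of all promoters. A TCF motif was in 7.48% of all promoters and in none of the 9 promoters of the 7 ILC2P-against-CLP members with an entry.

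Across the 5 WT populations 9 of the 48 tested members differed (edgeR quasi-likelihood F test, Benjamini-Hochberg adjusted p under 0.05), beside 18.1% of all 10972 genes tested, a share close to the members'. They were Macroh2a1, Uhrf1, Ezh2, Dnmt1, Cbx7, Cbx5, Kdm6b, Hmga1 and Rbbp4. Ring1, a PRC1 ubiquitin ligase gene, was not tested: it had 7 counts in 2 libraries. The other members had 183 to 18669 counts each over the 47 libraries, and 34 of the 49 had counts in 40 libraries or more. In CILP against CLP 1 member was lower and none higher (background 4.31% of genes either way, 1.97% lower). In ILC2P against CILP 2 were lower and none higher (5.32% either way, 4.22% lower). In ILC2P against CLP 6 were lower and 2 higher (11.5% either way, 8.0% lower, 3.46% higher). No member was called in a4b7 CLP against CLP (0.0456%) or in ILCP against CILP (0.374%). In those 2 comparisons 0 and 1 of the 48 tested members had an unadjusted p under 0.05, beside 7.57% and 10.8% of all genes. DESeq2 called 0 members in each.

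Macroh2a1, at chr13:56073622-56135626 on the minus strand, was the member with the most counts and the largest separation between populations. In the 8 WT CLP libraries it was at 3012 CPM at the lowest, 5171 at the median and 6811 at the highest. The 5 WT a4b7 CLP libraries were at 4227, 4571, 4460, 3825 and 4456 CPM. These CLP ranges overlapped, and the log2 fold change of a4b7 CLP over CLP was -0.17 ± 0.33 (SE, edgeR adjusted p = 1.0). The 7 WT CILP libraries lay at 534, 713 and 1361 CPM (lowest, median, highest). The 3 WT ILCP libraries were at 973, 206 and 774 CPM, and the 8 WT ILC2P libraries at 148, 377 and 760. Every WT CLP and a4b7 CLP library was above every library of the other 3 populations, while the CILP, ILCP and ILC2P ranges overlapped one another.

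**Figure D1:**
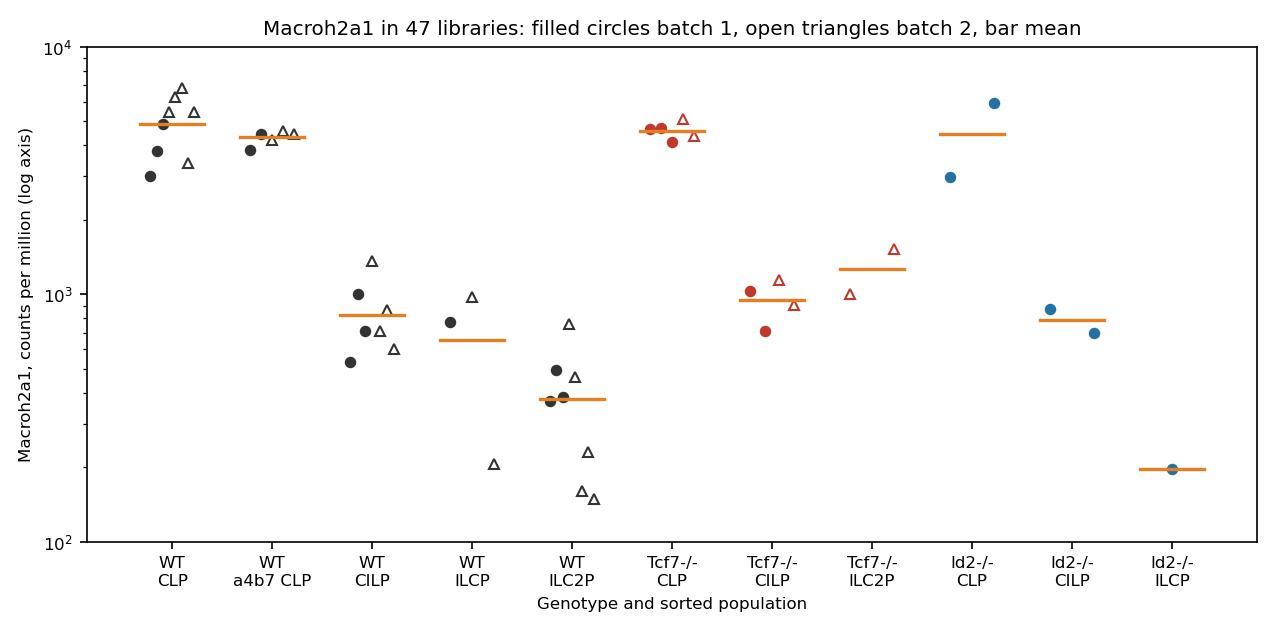
Macroh2a1 level in CPM on a log axis for each of the 47 libraries, by genotype and population, with filled circles for batch 1, open triangles for batch 2 and a bar at the group mean. CLP libraries of every genotype lie at 2976 or above and CILP libraries of every genotype at 1361 or below.

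Group means were 4888 ± 1380 CPM (SD, n = 8) in WT CLP, 827 ± 284 (n = 7) in CILP and 376 ± 203 (n = 8) in ILC2P. Macroh2a1 was 5.86-fold lower in CILP than in CLP (log2 fold change -2.55 ± 0.32 SE, edgeR adjusted p = 2.98e-09). It was 12.9-fold lower in ILC2P than in CLP (-3.69 ± 0.33, adjusted p = 1.41e-16). Both calls passed under each of the 10 other settings tried and without each single library in turn, batch 1 alone and batch 2 alone included. The further difference between ILC2P and CILP was smaller, at -1.14 ± 0.31 on the log2 scale (adjusted p = 0.0176), and it was less stable: without WT CILP replicate 1 it was -0.97 (adjusted p = 0.0568), and with median-ratio size factors -0.60 (adjusted p = 0.276), and it passed in 4 of 10 other settings. ILCP differed from CILP by -0.34 ± 0.41 (adjusted p = 0.846). Median-ratio size factors, in place of TMM, moved the median over all genes from -0.43 to -0.18 for ILC2P against CLP, and from -0.55 to -0.23 for ILC2P against CILP. The Macroh2a1 value for ILC2P against CLP was -3.20 with them.

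Macroh2a1 alone made up 34.1% of all member counts in WT CLP, 8.67% in CILP and 5.04% in ILC2P. These are shares of counts pooled over libraries, with no correction for transcript length. In single libraries the share was 22.2% to 42.6% in CLP, 5.20% to 15.0% in CILP and 1.93% to 33.3% in ILC2P. The CLP and ILC2P shares thus overlapped. The other 48 members summed to 7364 to 11502 CPM in CLP, 7740 to 11322 in CILP and 1519 to 9620 in ILC2P, with the lowest sum in the shallow ILC2P replicate 1, which had 19322 counts. Labelled technical repeats, added to their parent library in all tests, show the spread within 1 sample. One WT CLP library had a raw CPM of Macroh2a1 (per library total, with no TMM factor) of 5666 (95% exact interval 5257 to 6098), and its 2 repeats had 5241 and 6116, with intervals that overlapped the parent's. A WT CILP library had 1255 (1092 to 1436), and its repeats had 796 (618 to 1009) and 1099 (878 to 1358). The repeat at 796 thus lay below its parent by more than counting error. These intervals cover counting error only. The 12 control wells, which held spike-in RNA and no cells, had 51 to 9439 gene counts each and 23418 in all, of which 142 were of members. Macroh2a1 had 13 of them, at most 6 in a well, against 193 counts over the 8 WT ILC2P libraries. The 13 counts are a raw CPM of 555, taken over wells of few counts. That raw CPM is near the median of 412 in WT ILC2P libraries and below every WT CLP library, at 3022 or more. A noncoding gene, Gm47071, overlaps Macroh2a1 on the opposite strand, and the sources used here do not say whether counting used the strand.

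Macroh2a1 did not pass the test for either knockout in CLP or CILP. Tcf7 knockout CLP libraries were at 5114, 4348, 4665, 4704 and 4144 CPM, and Id2 knockout CLP libraries at 2976 and 5950. Tcf7 knockout CILP libraries were at 1140, 910, 1034 and 711 CPM, and Id2 knockout CILP libraries at 870 and 701. Only 1 of these 13 libraries, an Id2 knockout CLP library at 2976, was outside the WT range of its population, which began at 3012. The log2 fold changes were -0.06 ± 0.34 and 0.20 ± 0.37 for Tcf7 in CLP and CILP, and -0.06 ± 0.48 and -0.01 ± 0.48 for Id2 (adjusted p = 0.913 or above in each). The change from CLP to CILP differed between Tcf7 knockout and WT by 0.26 ± 0.50 on the log2 scale, and between Id2 knockout and WT by 0.05 ± 0.66 (edgeR, adjusted p = 1.0 for each). The single Id2 knockout ILCP library was at 196 CPM and entered no test.

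Hmga1, an AT-hook protein that bends DNA and is known from dividing and embryonic cells, was at 0 in all 8 WT ILC2P libraries. In the 8 WT CLP libraries it was at 0 to 199 CPM, with a median of 10.2, and it was above 100 in 3 of the 5 batch 2 libraries and under 10 in all 3 of batch 1. The a4b7 CLP libraries were at 102, 172, 0, 0 and 0 CPM, the ILCP libraries at 19.8, 24.2 and 0, and 1 of the 7 CILP libraries at 26.0 with the others at 0. Over the group, CLP held 78 counts (69.8 CPM pooled) and ILC2P 0, which is at least 12.3-fold higher against a floor of 3 counts over the ILC2P group. The edgeR adjusted p was 0.0213 for ILC2P against CLP, and it was 0.063 without the 2 shallow ILC2P libraries, replicates 1 and 3. Across the 5 populations it passed with edgeR, and in 24 of 31 fits without 1 library, but DESeq2 gave an adjusted p of 0.601. The mouse genome carries near-identical copies of Hmga1, so its counts are uncertain. AI413582 overlaps it on the opposite strand.

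Cbx5 encodes HP1 alpha, which binds the H3 lysine 9 methylation of heterochromatin. It was at 41.8, 435 and 616 CPM (lowest, median, highest) in the 8 WT CLP libraries, at 438, 890, 90.2, 520 and 595 in the 5 a4b7 CLP libraries, at 133, 271 and 351 in the 7 CILP libraries, at 49.4, 145 and 58.9 in the 3 ILCP libraries, and at 0, 158 and 417 in the 8 ILC2P libraries. CLP and ILC2P overlapped. It passed the test across the 5 populations (adjusted p = 0.0259) but not ILC2P against CLP (-1.53 ± 0.56, adjusted p = 0.0572), and the first value was 0.0697 without WT a4b7 CLP replicate 2, 0.0578 without ILCP replicate 1 and 0.0537 without ILCP replicate 3. Hmgb2, a DNA-bending protein abundant in dividing cells, had means of 76.4 CPM in CLP and 9.53 in ILC2P and did not pass (-2.69 ± 1.03, adjusted p = 0.0716). Ctcf, the insulator protein that anchors chromatin loops, had means of 688 and 411 (-0.78 ± 0.45, adjusted p = 0.256).

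Among the genes of DNA methylation, Uhrf1 (chr17:56303337-56323486, plus strand) was almost unseen in ILC2P. In the 8 WT CLP libraries it was at 0, 77.4 and 157 CPM (lowest, median, highest), in the 5 a4b7 CLP libraries at 60.0, 298, 180, 149 and 160, in the 7 CILP libraries at 0, 56.9 and 164, and in the 3 ILCP libraries at 39.5, 218 and 0. In ILC2P 7 of 8 libraries were at 0 and the other, replicate 1, held 1 count. CLP held 104 counts over the group and CILP 115, so the pooled level was 49.2 times that of ILC2P in CLP (95% interval of the count ratio 8.64 to 1962) and 45.0 times in CILP (7.92 to 1794). Both ratios rest on that 1 count, and their intervals cover counting error only, with reads taken as independent molecules. The fitted log2 fold change was -4.91 ± 1.18 against CLP (adjusted p = 0.00253) and -4.88 ± 1.19 against CILP (adjusted p = 0.00763). Without the ILC2P library that held the 1 count, both calls passed. With batch 2 alone the adjusted p was 0.0694 and 0.11, and with batch 1 alone 0.0423 and 0.0911. The E2F matches printed above lie in the promoters of this gene.

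A list of 26 proliferation genes was also lower in ILC2P than in CLP. Its summed level was 2761 to 7102 CPM in WT CLP, 5695 to 13191 in a4b7 CLP, 775 to 3188 in CILP, 545 to 2212 in ILCP and 273 to 1349 in ILC2P, where Ccne1, Rrm2 and Aurka were at 0 in every library. In ILC2P against CLP 13 of its 25 tested genes were lower and none higher, beside 8.0% and 3.46% of all genes, and its median log2 fold change was -2.96 beside -0.43 for all genes. In CILP against CLP 7 were lower, beside 1.97% of all genes, with a median of -1.57, while Uhrf1 was at -0.03 ± 0.78 there and Ezh2 at -0.64 ± 0.61 (adjusted p = 1.0 and 0.702). The part of proliferation in the member results was not tested.

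Dnmt1, the maintenance methyltransferase, followed another order. It was at 98.0, 256 and 966 CPM (lowest, median, highest) in the 8 WT CLP libraries and at 732, 580, 189, 340 and 261 in the a4b7 CLP libraries. In the 7 CILP libraries it was at 0, 95.2 and 205, in the 3 ILCP libraries at 148, 48.5 and 50.5, and in the 8 ILC2P libraries at 53.3, 162 and 250. The CLP, CILP and ILC2P ranges overlapped. It passed across populations (adjusted p = 0.022) but not in CILP against CLP (-1.72 ± 0.60, adjusted p = 0.0803), where it did pass with DESeq2, with median-ratio size factors and in batch 1 alone. Without WT a4b7 CLP replicate 1 or WT CLP replicate 2 the adjusted p across populations was 0.0565 or 0.0531. The de novo methyltransferases did not pass in ILC2P against CLP: Dnmt3a was at -0.78 ± 0.70 and Dnmt3b at -1.90 ± 0.92. The oxidases Tet1, Tet2 and Tet3 had log2 fold changes of -0.55, -0.56 and 0.07 there, each with an SE of 0.67 to 0.99.

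**Figure D2:**
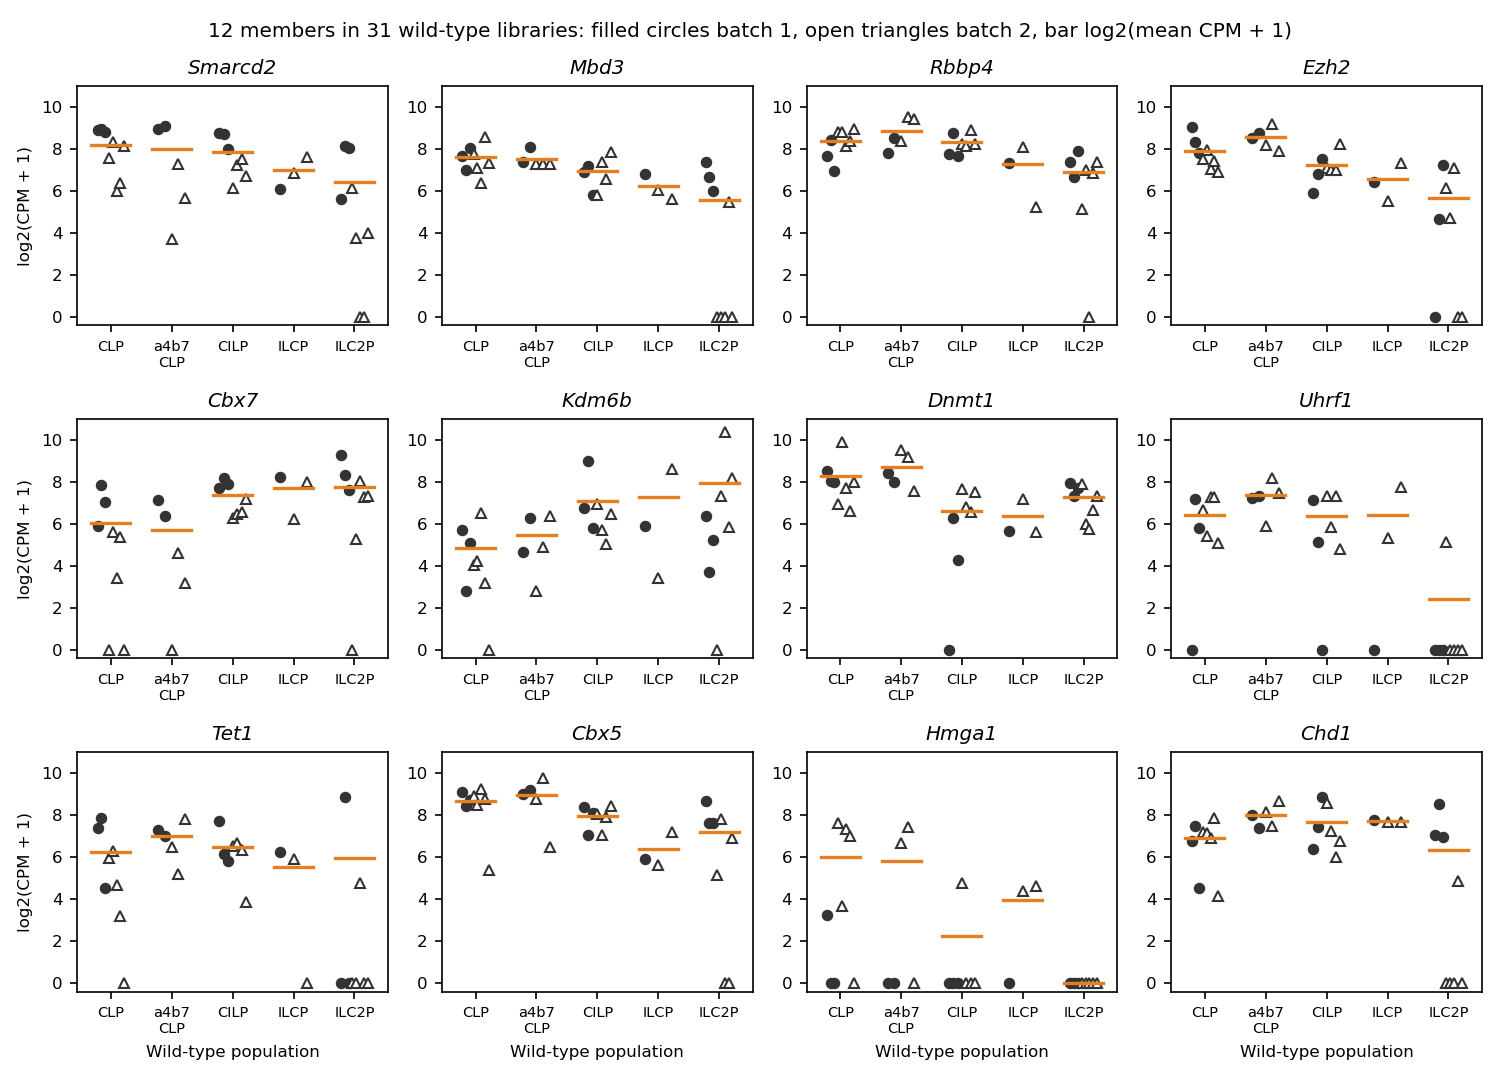
Levels of 12 members in the 31 WT libraries, as log2(CPM + 1), by population, with filled circles for batch 1, open triangles for batch 2 and a bar at the log2 of the mean CPM plus 1. Uhrf1 and Hmga1 sit at 0 in nearly all ILC2P libraries, and Cbx7 and Kdm6b are the panels whose bars are higher in CILP, ILCP and ILC2P than in CLP.

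In PRC2, Ezh2, the catalytic subunit in dividing cells, was lower in ILC2P than in CLP. The 8 WT CLP libraries were at 117, 202 and 534 CPM (lowest, median, highest), the 5 a4b7 CLP libraries at 288, 574, 238, 371 and 440, the 7 CILP libraries at 59.4, 127 and 296, the 3 ILCP libraries at 44.4, 158 and 84.1, and the 8 ILC2P libraries at 0, 24.9 and 149. The highest ILC2P libraries lay within the CLP range. The difference was 5.01-fold (-2.33 ± 0.66, adjusted p = 0.0122) and passed without each single library, but not with batch 2 alone (-2.01, adjusted p = 0.227) or with only these groups fitted (-1.96, adjusted p = 0.0871). Its paralogue Ezh1, known from resting cells, was at 0.61 ± 0.90, and the core subunits Eed and Suz12 at -1.03 ± 0.83 and -0.82 ± 0.55. None of these 3 passed.

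In PRC1, Cbx7, a chromodomain reader of the H3 lysine 27 mark, was higher in ILC2P. It was at 0, 44.3 and 232 CPM (lowest, median, highest) in the 8 WT CLP libraries, at 0, 23.5, 8.20, 142 and 81.7 in the 5 a4b7 CLP libraries, at 78.1, 145 and 294 in the 7 CILP libraries, at 74.1, 254 and 303 in the 3 ILCP libraries, and at 0, 181 and 620 in the 8 ILC2P libraries. All these ranges overlapped. The log2 fold change of ILC2P over CLP was 2.12 ± 0.73 (adjusted p = 0.0437). It passed in 7 of the 16 fits that left out 1 CLP or ILC2P library, with adjusted p up to 0.0919. Without the batch term the value was 1.76 (adjusted p = 0.132): batch 1 CLP libraries were at 59.4, 232 and 132 CPM, and all 5 of batch 2 were under 50. Apobec3 overlaps Cbx7 on the opposite strand. Another reader, Cbx2, had means of 161 CPM in CLP, 53.0 in CILP and 52.0 in ILC2P (-1.11 ± 0.91 for ILC2P against CLP), with 1 CLP library at 881. Bmi1 and the ligase Rnf2 were at -0.23 ± 0.87 and -1.25 ± 0.74, and none of these 3 passed.

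Kdm6b, which demethylates H3 lysine 27, was also higher in ILC2P than in CLP. It was at 0, 16.6 and 93.0 CPM (lowest, median, highest) in the 8 WT CLP libraries, at 6.0, 28.7, 82.0, 24.8 and 77.8 in the a4b7 CLP libraries and at 31.7, 89.5 and 510 in the 7 CILP libraries. The 3 ILCP libraries were at 9.88, 400 and 58.9 CPM, and the 8 ILC2P libraries at 0, 70.5 and 1333. ILC2P spanned the whole CLP range. The difference was 8.29-fold (3.05 ± 0.85, adjusted p = 0.0113), and without ILC2P replicate 3, the shallow library at 1333, it was 1.79 on the log2 scale (adjusted p = 0.16). In batch 1 alone it was 0.54 (adjusted p = 0.868) and in batch 2 alone 3.73 (adjusted p = 0.0502). The antisense gene Kdm6bos overlaps Kdm6b. Kdm6a, the X-linked paralogue, was at 0.49 ± 1.00, and the H3 lysine 4 methyltransferases Kmt2a and Kmt2d at -0.36 ± 0.54 and 0.55 ± 0.73, none past the test.

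Among NuRD subunits and deacetylases, Mbd3 and Rbbp4 were called. Mbd3, the methyl-CpG-binding family subunit of NuRD, was at 83.2, 181 and 376 CPM (lowest, median, highest) in the 8 WT CLP libraries, at 54.9, 119 and 227 in CILP and at 0, 21.6 and 167 in ILC2P. Of the ILC2P libraries 4 of the 5 in batch 2 were at 0 and the 3 in batch 1 were at 62.0 to 167. It was 4.12-fold lower in ILC2P than in CLP (-2.04 ± 0.71, adjusted p = 0.0453), passed in 5 of the 16 fits without 1 library, with adjusted p up to 0.0874, and was at -0.90 in batch 1 alone (adjusted p = 0.611) and -4.13 in batch 2 alone (adjusted p = 0.034). Rbbp4, a histone chaperone shared by NuRD and PRC2, was at 121, 342 and 502 CPM in CLP, at 336, 734, 680.4, 223 and 362 in the a4b7 CLP libraries, at 201, 303 and 476 in CILP, at 272, 36.3 and 160 in the ILCP libraries, and at 0, 120 and 236 in ILC2P. It passed across populations at an adjusted p of 0.0497 and in 7 of 31 fits without 1 library, and was at -1.41 ± 0.51 in ILC2P against CLP (adjusted p = 0.0548). The motor Chd4, the member with the second most counts, had means of 875 CPM in CLP, 1078 in CILP and 469 in ILC2P (-0.93 ± 0.40 for ILC2P against CLP, adjusted p = 0.115). The deacetylases Hdac1 and Hdac2 were at -1.53 ± 0.78 and -1.54 ± 0.80, Hdac3 at -0.08 ± 1.24 and Hdac7 at -0.37 ± 0.55. Mta2, Rbbp7 and the second motor Chd3 were at -0.10 ± 0.58, -0.60 ± 0.60 and 1.13 ± 0.66, none past the test.

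Of the 12 SWI/SNF subunits, Smarcd2, an accessory subunit known for its need in granulocyte formation, was the 1 called. The 8 WT CLP libraries were at 63.6, 303 and 489 CPM (lowest, median, highest), the 7 CILP libraries at 70.6, 183 and 439, and the 8 ILC2P libraries at 0, 31.3 and 284. The groups overlapped, and in these 3 the batch 1 libraries were higher on average, with CLP means of 471 CPM in batch 1 and 189 in batch 2 and ILC2P means of 198 and 19.3. The difference was 4.73-fold (-2.24 ± 0.60, adjusted p = 0.00833), and within batches it was -1.30 (batch 1, adjusted p = 0.163) and -3.44 (batch 2, adjusted p = 0.0854). The ATPases Smarca2 and Smarca4 were at 0.65 ± 0.63 and -1.06 ± 0.51 in ILC2P against CLP. The core subunits Smarcb1, Smarcc1, Smarcc2, Smarcd1 and Smarce1 were at -2.08 ± 0.84, -0.61 ± 0.65, 0.26 ± 0.65, 0.71 ± 0.92 and -1.50 ± 1.17. The targeting subunits Arid1a, Arid1b, Arid2 and Pbrm1 were at 0.43 ± 0.45, -0.70 ± 0.56, -0.14 ± 0.62 and -0.97 ± 0.48. None of these 11 passed.

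In the small group of the ISWI motor Smarca5 and Chd1 neither was called. Chd1, a remodeller that spaces nucleosomes over transcribed genes, was at 16.7, 133 and 237 CPM (lowest, median, highest) in the 8 WT CLP libraries and at 0, 14.4 and 371 in the 8 ILC2P libraries (-0.81 ± 0.70, adjusted p = 0.497). The a4b7 CLP libraries were at 282, 180, 410, 260 and 167 CPM, and the 3 ILCP libraries at 202, 206 and 219. The CLP range lay within that of ILC2P, and the 3 ILCP libraries were the closest to one another. Smarca5 was at -0.63 ± 0.65.

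**Figure D3:**
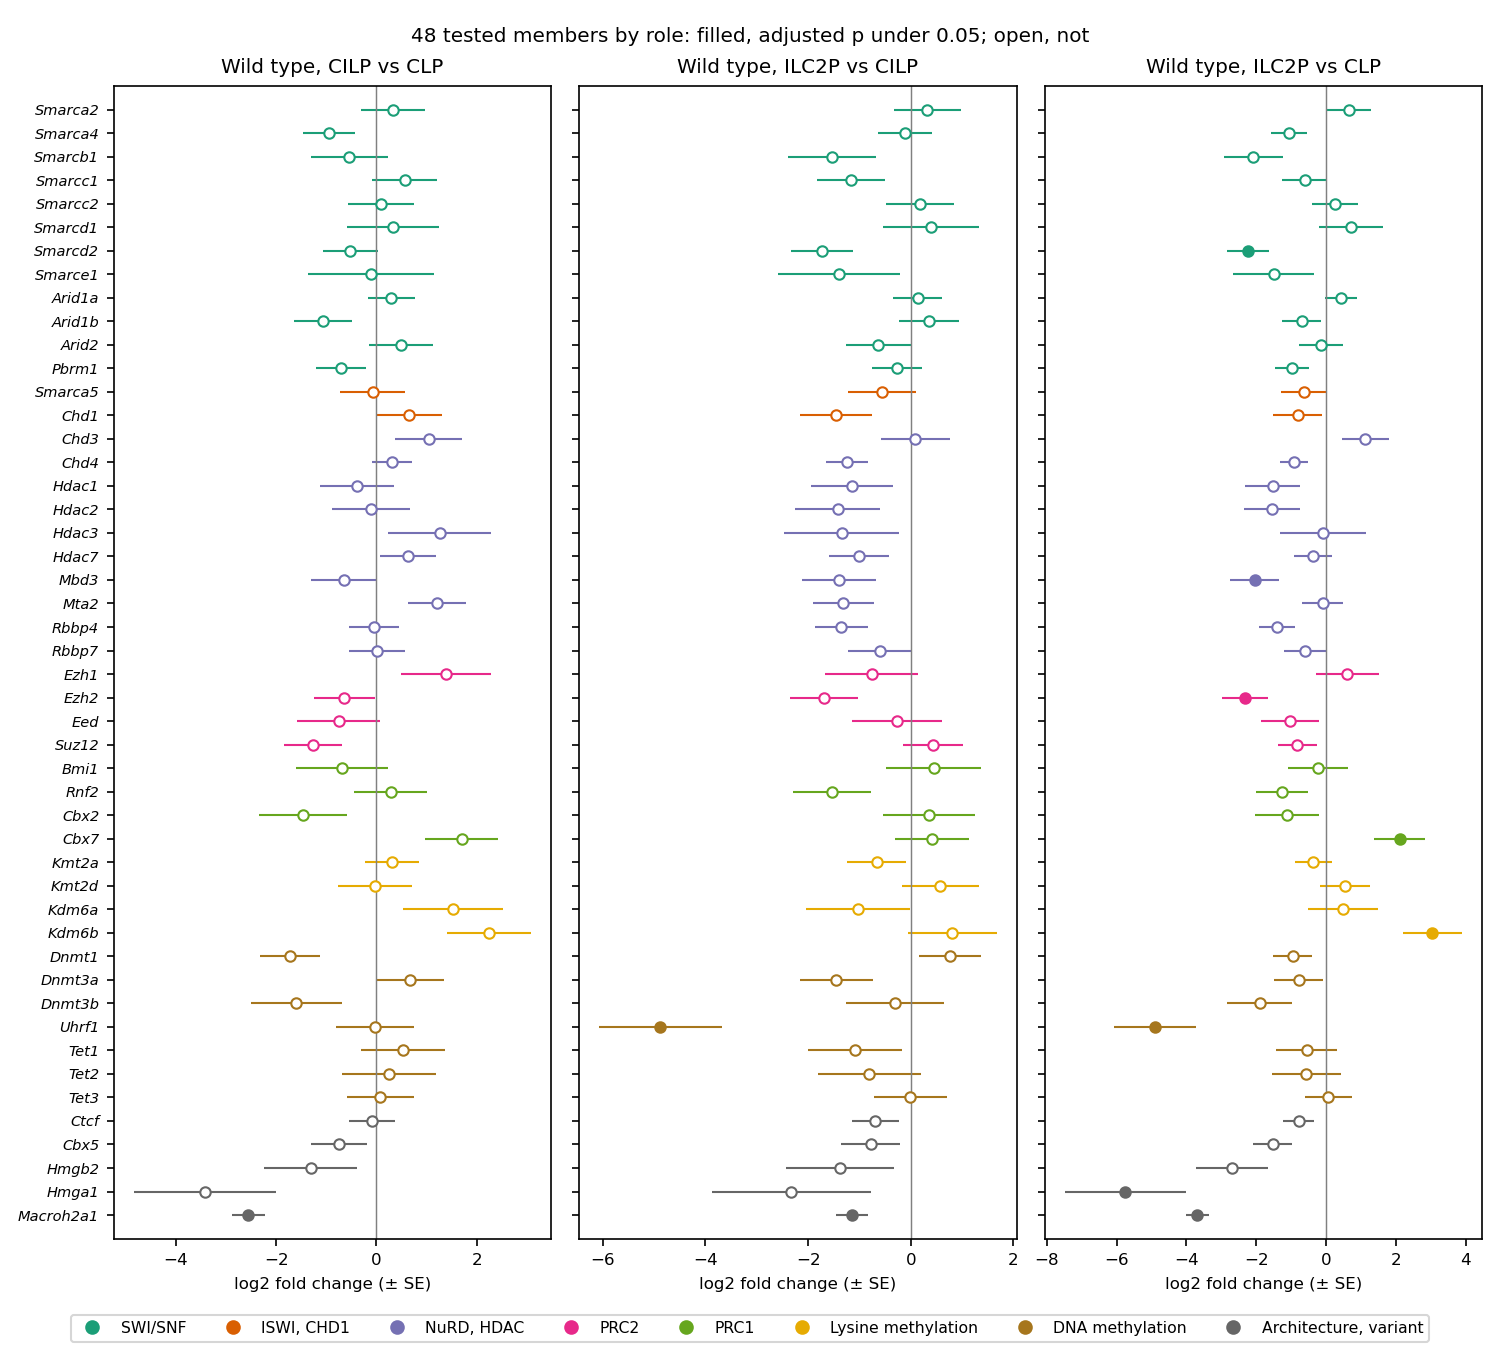
Fitted log2 fold changes with standard errors for the 48 tested members, ordered and coloured by role, in 3 WT comparisons, with filled points for an adjusted p under 0.05. Macroh2a1, at -2.55, -1.14 and -3.69, is the only filled point in the first panel. In the other panels it has the narrowest error of the filled points.

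Over all 48 tested members, the median log2 fold change of ILC2P against CLP was -0.78, beside -0.43 over all genes tested. Of the members 37 had a negative sign, where the median over all genes was negative too. The medians by role were -0.66 for SWI/SNF, -0.72 for ISWI and CHD1, -0.76 for NuRD and deacetylases, -0.92 for PRC2 and -0.67 for PRC1. They were -0.78 for DNA methylation, -2.69 for architecture and variant genes and 0.52 for lysine methylation. In CILP against CLP the median was -0.03 beside 0.07 for all genes, with 25 negative signs. The architecture group had 5 of 5 negative there, with a median of -1.31.

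**Figure D4:**
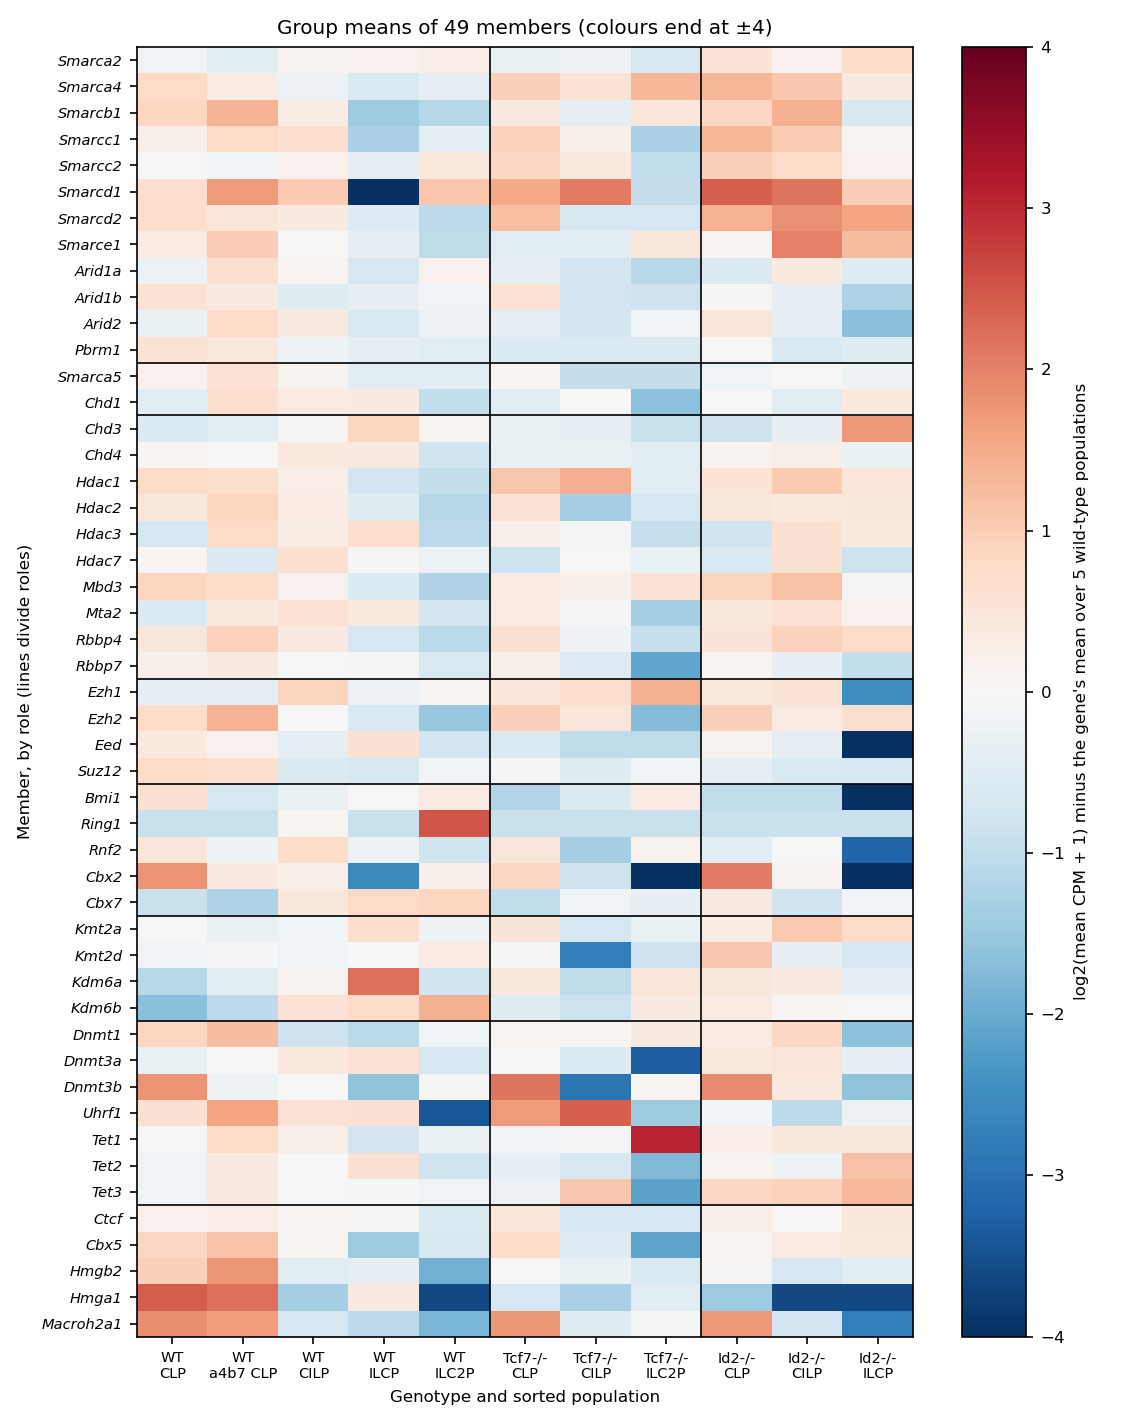
Group means of the 49 members as log2(mean CPM + 1), less the gene's mean over the 5 WT populations, with roles divided by lines and colours ending at ±4. The Macroh2a1 row is above its WT mean in the CLP groups of all 3 genotypes, and Tet1 in Tcf7 knockout ILC2P is the strongest rise in the Tcf7 columns.

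Loss of Tcf7 was compared within each population. No member was called in CLP (background 0%) or CILP (0.501%), and DESeq2 called 0 in each. At an unadjusted p under 0.05 there were 0 and 1 members, beside 6.5% and 11.1% of all genes tested. That 1 member was Kmt2d, at -2.47 ± 1.05 on the log2 scale in CILP (adjusted p = 0.357). No member was called for a different effect of the knockout in CILP than in CLP (0.0456%), by edgeR or DESeq2. There 0 members had an unadjusted p under 0.05, beside 9.08% of all genes tested. In ILC2P 2 members were higher and none lower in the knockout (2.57% of genes either way, 2.54% higher), from 2 libraries against 8. DESeq2 called 2 as well, Tet1 and Cbx2, the latter at 0 in both knockout libraries.

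Macroh2a1 was at 1003 and 1524 CPM in the 2 Tcf7 knockout ILC2P libraries, above all 8 WT ILC2P libraries, whose highest was 760. The log2 fold change was 1.71 ± 0.43 (adjusted p = 0.012). As raw CPM, with no scaling factors, the 2 libraries were at 492 and 1263, within and just above the WT range of 172 to 1139. Without knockout replicate 2 it was 1.35 (adjusted p = 0.30), with median-ratio size factors 1.14 (adjusted p = 0.211), with DESeq2 1.27 (adjusted p = 0.0836), and without the libraries rich in other-lineage markers, which leaves replicate 2 alone, 2.03 (adjusted p = 0.0229). In a fit with 1 knockout library, that library is assumed to vary like those of the other groups. It passed in 4 of 9 other settings. In replicate 1, 11 B and plasma cell markers summed to 412954 CPM, with only Pax5 at 0 in both libraries. In replicate 2, 10 T cell markers summed to 9608 CPM, against 906 in replicate 1 and 11.9 to 940 in WT ILC2P, where Cd3d, Cd3e, Cd8a and Cd8b1 were at 0. The 8 CLP markers summed to 2629 and 3994 CPM in the 2 knockout libraries and 785 to 2781 in WT ILC2P, and the 10 ILC2P markers to 4611 and 8900 against 3349 to 10531. The part of these transcripts in the Macroh2a1 result was not tested.

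Tet1, which oxidises methylated cytosine, was at 1205 CPM in Tcf7 knockout ILC2P replicate 1 and 53.4 in replicate 2. Among WT ILC2P libraries it was at 470 CPM in replicate 7, at 26.7 in replicate 3 and at 0 in the other 6. The log2 fold change was 4.54 ± 1.20 (adjusted p = 0.018) and rested on replicate 1, the library with the B and plasma cell markers: without it the value was 1.06 (adjusted p = 0.947).

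Loss of Id2 was compared in CLP and CILP, with 2 knockout libraries of each, all in batch 1. No member was called in CLP (background 0.0365%) or CILP (0.0911%), nor for a different effect in CILP than in CLP (0.0365%), by edgeR or by DESeq2. At an unadjusted p under 0.05 there were 0, 1 and 0 members, beside 3.17%, 6.26% and 4.81% of all genes tested. That 1 member was Dnmt1, at 349 and 280 CPM in Id2 knockout CILP and at 0 to 205 CPM in the 7 WT CILP libraries. Its log2 fold change was 2.01 ± 0.86 (adjusted p = 0.644), and it passed the test in batch 1 alone. The proliferation list summed to 3975 and 6698 CPM in Id2 knockout CILP, above all WT CILP libraries. These 2 libraries differed from WT CILP in other markers too. The 9 CILP markers, Id2 among them, summed to 615 and 797 CPM against 4935 to 8725 in WT, with none at 0 in both. The 8 mast cell and basophil markers summed to 3885 and 6643 CPM against 36.6 to 4476 (median 290) in WT, with only Tpsb2 at 0 in both. The 13 erythroid and megakaryocyte markers summed to 2470 and 2677 CPM against 0 to 1330, with Hba-a1, Hbb-bs, Alas2, Slc4a1 and Ppbp at 0. The part of these transcripts and of proliferation in the Dnmt1 value was not tested.

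A wider set of 148 other genes of the same pathways, of which 136 were tested, gave the setting of these members. In ILC2P against CLP 16 of them were lower and none higher, beside 8.0% and 3.46% of all genes tested, and their median was -0.38 beside -0.43 for all genes. The lowest adjusted p values were those of the DNA damage variant H2ax (-4.08 ± 0.74, adjusted p = 3.4e-05), the H3 lysine 36 methyltransferase Nsd2 (-3.19 ± 0.72, adjusted p = 0.0013), the SWI/SNF subunit Bcl7a (-3.94 ± 0.92, adjusted p = 0.0019) and the NuRD subunit Mta3 (-2.95 ± 0.72, adjusted p = 0.003). Of these 16 genes 9 belonged to the list of 30 tested architecture, histone variant and chaperone genes, which include the histone chaperone Asf1b and the genome organiser Satb1. In ILC2P against CILP 2 were higher, the remodeller Chd7 (4.51 ± 1.23, adjusted p = 0.019) and Gadd45b (3.77 ± 1.11, adjusted p = 0.029), and 5 were lower, among them Hmga2 and Nsd2. In CILP against CLP 2 were lower, H2ax (-2.42 ± 0.67, adjusted p = 0.02) and Gadd45b (-3.43 ± 1.08, adjusted p = 0.047). In Tcf7 knockout against WT ILC2P 2 were higher, Bcl7a (5.70 ± 1.12, adjusted p = 0.00065) and H2ax (4.33 ± 0.92, adjusted p = 0.0018), beside 2.54% of all genes. These values come from the same 2 knockout libraries. B and plasma cell markers were at 412954 CPM in replicate 1, and T cell markers at 9608 CPM in replicate 2. The part of these transcripts in the Bcl7a and H2ax values was not tested.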

How the data were processed

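CEL-seq libraries of sorted mouse bone marrow progenitors were used as deposited: raw read counts per gene by Entrez identifier, in 1 table per batch, made by the authors. The submitters' processing notes name CASAVA 1.8.2, featureCounts, edgeR 3.8.2 and 3.22.0, limma and the mm10 build; molecular identifiers and strand are not given in the sources used here. Of 70 samples, 4 technical repeats were added to their parent libraries, which left 66. The model held 47. Left out were 12 control wells, 6 libraries labelled as an unsuccessful Nfil knockout and 1 CILP library that the labels mark as an outlier. Identifiers were matched to RefSeq symbols for 25275 of 27179 genes (92.99%), the members included.

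edgeR 4.0.16 in R 4.3.3 fitted quasi-likelihood models with group means and a batch term, TMM scaling and the filterByExpr filter by group (minimum count 10, minimum total 15), which left 10972 genes. The biological coefficient of variation was 109.7%. Calls needed an adjusted p (Benjamini-Hochberg, all genes tested) under 0.05. Fold changes are given on the log2 scale ± SE, and CPM are counts over library size times the TMM factor. Alternatives were DESeq2 1.42.0, median-ratio size factors, no batch term, no filter on low counts, each batch by itself, only the compared groups and the marked outlier put back. Others left out shallow libraries (under 20% of their batch's median total), libraries with other-lineage markers over 1% of 1000000 CPM, or each library in turn.

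Values in every library, or the lowest, median and highest, are given in the groups compared for members called in any comparison and, in a role with none, for the member with the highest mean CPM. Other genes of the pathways are named only where called. The members and lists were chosen with earlier results of these data known. Gene positions and overlaps are those of GRCm38.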

Additional observations from a re-analysis of the deposited data

Results flagged for a closer look

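In 12 of 77 sets of member values, each the libraries of 1 group for 1 member, a single library stood apart from the others by Dixon's criterion. Chance marks about 1 in 20 such groups where values follow a normal distribution. The CPM were used without logs and their distribution was not tested, so 12 of 77 is not read as an excess. Groups in which nearly all libraries are at 0 are marked by any single count. In wild-type ILC2P, replicate 3 was at 1333.29 CPM of Kdm6b, with the next library at 296.391, replicate 7 was at 469.969 CPM of Tet1 (next 26.6659) and at 371.028 of Chd1 (next 131.126), and replicate 1 was at 34.525 of Uhrf1, the others being at 0. In wild-type CLP, replicate 2 was at 965.937 CPM of Dnmt1 (next 364.79) and replicate 5 at 41.7956 of Cbx5, below the next at 348.061. In wild-type CILP, replicate 6 was at 510.498 CPM of Kdm6b (next 122.686). In a4b7 CLP, replicate 5 was at 268.53 CPM of Mbd3 (next 167.126). In Tcf7 knockout CILP, replicate 1, a library rich in erythroid and megakaryocyte markers, was at 1079.74 CPM of Uhrf1 (next 71.1439). Hmga1 was seen in a single library of wild-type CILP (26.0242 CPM), Tcf7 knockout CLP (33.3583) and Tcf7 knockout CILP (15.8472).

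Macroh2a1 was also measured in libraries outside the model. As raw CPM, with no scaling factors, the 2 CLP libraries labelled as an unsuccessful Nfil knockout were at 2959.64 and 4384. The wild-type CILP library marked as an outlier was at 1061.82. All control wells together were at 555, from 13 counts.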

How the results depend on the processing

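No paired analysis was possible because replicate numbers were given in accession order and pair no libraries. Results did not reverse under any alternative tried, and of 683 values of named members under an alternative 558 stayed on their side of the threshold and 125 lost it. Macroh2a1 in CILP against CLP (-2.64 to -2.39) and in ILC2P against CLP (-3.91 to -3.20) passed in all alternatives and without each library. The causes of the changes below were not tested, but each batch alone and only the compared groups use fewer libraries. With only the compared groups the filter also left fewer members to test than the 48 of the model. It left 24 in ILC2P against CILP, 22 in ILC2P against CLP and 31 in Tcf7 knockout against wild-type ILC2P. Uhrf1 was not tested in the first 2 of these fits, nor Hmga1 and Kdm6b in ILC2P against CLP, so they could not be called. Members called across the 5 populations went from 9 to 4 in batch 1 alone and 1 in batch 2 alone, and to 6 to 11 without single libraries. In CILP against CLP the count went from 1 to 3 with DESeq2, 2 with median-ratio size factors, 2 in batch 1 alone, and 1 to 2 without single libraries (2 without CILP replicate 1). In ILC2P against CILP it went from 2 to 1 with DESeq2, 1 with median-ratio size factors, 1 with no batch term, 0 in batch 1 alone, 0 in batch 2 alone, 0 with only the compared groups, 4 without the libraries rich in other-lineage transcripts, and 1 to 4 without single libraries (1 without CILP replicate 1, 4 without ILC2P replicate 4 or 7). In ILC2P against CLP it went from 8 to 5 with no batch term, 3 in batch 1 alone, 3 in batch 2 alone, 4 without the shallow libraries, 4 with only the compared groups, and 5 to 10 without single libraries (5 without ILC2P replicate 3). In Tcf7 knockout against wild-type ILC2P it went from 2 to 1 with median-ratio size factors, 0 with no batch term, 1 in batch 2 alone, 1 without the shallow libraries, 0 with only the compared groups, 1 without other-lineage libraries, and 1 to 2 without single libraries (1 without either knockout library). In Id2 knockout against wild-type CILP it went from 0 to 1 in batch 1 alone. The other 7 comparisons kept a count of 0 throughout.

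Over all genes, calls ranged more widely across the alternatives other than leaving out 1 library: 529 to 2162 across populations (1990 in the model used), 105 to 521 in CILP against CLP (473), 0 to 33 in a4b7 CLP against CLP (5), 8 to 92 in ILCP against CILP (41), 90 to 732 in ILC2P against CILP (584) and 157 to 1439 in ILC2P against CLP (1258). For the knockouts they ranged from 0 to 18 for Tcf7 in CLP (0), 0 to 96 in CILP (55) and 2 to 319 in ILC2P (282), from 1 to 10 for Id2 in CLP (4) and 9 to 90 in CILP (10), and from 0 to 31 and 3 to 35 for the differences of effect (5 and 4). The number of genes left by the filter changed with the libraries fitted. The 90 and 157 calls came from only the compared groups, with 1245 and 1266 genes tested. Calls were 7.23% and 12.4% of those genes, beside 5.32% and 11.5% of 10972 in the model used. The 2 calls for Tcf7 in ILC2P came from the same setting, and were 0.0624% of 3207 genes beside 2.57%. Depth limits members of few counts most: 1 count in the shallowest ILC2P library is 34.5 CPM.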
